A study of Mus musculus with 12 samples.

Results

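This account covers the comparison of 50 µM with 10 µM indole-3-propionic acid (IPA) in mouse bone marrow cultures. It uses 8 of the 12 RNA-seq libraries of the study, 4 of cells that received 10 µM IPA and 4 of cells that received 50 µM IPA. The members were chosen by dose label alone, and the other 4 libraries, from cultures with the DMSO vehicle, serve as background. For each of the 12 libraries, marrow of wild-type (WT) C57BL/6 mice was grown in medium with GM-CSF and IL-6 and harvested on day 5. IPA or vehicle was added again on day 3 with fresh medium. The 10 µM and 50 µM groups therefore shared strain, genotype, cytokines and time, and differed by label in the concentration of IPA. The paper reports that viability in such cultures was slightly reduced at the higher of these doses and unaffected at the lower. For that reason its authors focused on the lower dose. The part of viability in the results below was not tested. Of the 54532 genes in the table, 14894 had more than 0.5 CPM (the count of a gene scaled to a common library size) in at least 2 of the 12 libraries and were tested.

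IPA is made from tryptophan by gut bacteria, and indoles of this kind can be ligands of the aryl hydrocarbon receptor (AHR), a transcription factor that induces cytochrome P450 enzymes when a ligand binds. GM-CSF with IL-6 drives bone marrow progenitors toward monocytes, macrophages and granulocytes, and such cultures are used to obtain myeloid cells that restrain T cells. A few regulators recur in the results. ATF4 is a transcription factor whose translation rises when amino acids are short or the integrated stress response is active, and it induces genes for amino acid synthesis, amino acid import and tRNA charging. SREBP2 induces sterol synthesis when membrane sterol is low, LXR and PPARG induce genes of lipid export and storage, and HIF1 induces glycolytic genes when oxygen is low.

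The counts of a library summed to between 20848854 and 28038612 at 10 µM and to between 20451312 and 26925143 at 50 µM, and those of mitochondrially encoded genes made up 0.67%, 0.77%, 0.93% and 1.06% at 10 µM, 0.94%, 1.05%, 1.20% and 1.07% at 50 µM, and 0.67% to 1.28% with vehicle. This share was on average higher at 50 µM, with overlapping groups, and its part in the results below was not tested. No library was a copy of another within its group, and nothing in the labels says whether the 4 libraries of a group came from separate mice, so p-values measure the spread between these libraries. Markers of the labelled culture were present. The integrin gene *Itgam*, which encodes CD11b of myeloid cells, lay between 448 and 528 CPM at 10 µM and between 532 and 591 CPM at 50 µM, and the macrophage growth factor receptor gene *Csf1r* between 942 and 1040.5 and between 675 and 809 CPM. Of 12 red cell genes, 4 passed the limit for testing (the haemoglobin gene *Hba-a1*, *Gata1*, *Car2* and *Epor*, with edgeR adjusted p between 0.282 and 0.999), with summed levels of 66.7 to 86.9 CPM at 10 µM and 68.7 to 88.7 CPM at 50 µM. In such bulk RNA, fewer cells of a type and less RNA per cell cannot be told apart.

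Promoter sequences of 6 genes with a rise or a fall described below are shown first, because each carries the short motif of the regulator named above. They are the 250 bases before the RefSeq start site on GRCm38.p6, read 5′ to 3′ on the strand of the gene, and capitals mark the motif on either strand. They were picked with these matches known. The bases just after the start were found in a GENCODE transcript of the gene for *Ahrr*, *Cyp1b1*, *Asns* and *Chac1*. They were not found for *Hmgcs1* and *Egln3*, so the start of these genes is less certain. *Ahrr* lies at chr13:74292332-74292581 (minus strand) and *Cyp1b1* at chr17:79715062-79715311 (minus), with the xenobiotic response element to which AHR binds (TNGCGTG, or its core GCGTG). *Asns* lies at chr6:7693210-7693459 (minus) and *Chac1* at chr2:119350992-119351241 (plus), with the amino acid response element (TGATGNAA). *Hmgcs1* lies at chr13:119690101-119690350 (plus), with a sterol response element (TCACNCCAC), and *Egln3* at chr12:54203875-54204124 (minus), with the core of the hypoxia response element (ACGTG).
Ahrr: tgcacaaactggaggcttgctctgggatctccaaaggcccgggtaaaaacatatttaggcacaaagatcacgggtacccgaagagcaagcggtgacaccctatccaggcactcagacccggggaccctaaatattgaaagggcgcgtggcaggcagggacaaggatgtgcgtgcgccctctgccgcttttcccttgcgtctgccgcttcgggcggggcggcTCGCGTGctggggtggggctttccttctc
Cyp1b1: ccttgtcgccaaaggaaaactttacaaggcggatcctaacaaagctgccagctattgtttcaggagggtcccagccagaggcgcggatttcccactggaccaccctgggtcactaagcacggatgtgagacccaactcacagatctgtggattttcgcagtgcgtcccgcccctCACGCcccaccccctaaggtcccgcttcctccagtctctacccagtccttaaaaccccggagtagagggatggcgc
Asns: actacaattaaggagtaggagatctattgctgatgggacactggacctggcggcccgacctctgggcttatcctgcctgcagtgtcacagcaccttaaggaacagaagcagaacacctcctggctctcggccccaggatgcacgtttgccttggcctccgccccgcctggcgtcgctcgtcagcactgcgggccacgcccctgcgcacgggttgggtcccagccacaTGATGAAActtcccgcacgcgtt
Chac1: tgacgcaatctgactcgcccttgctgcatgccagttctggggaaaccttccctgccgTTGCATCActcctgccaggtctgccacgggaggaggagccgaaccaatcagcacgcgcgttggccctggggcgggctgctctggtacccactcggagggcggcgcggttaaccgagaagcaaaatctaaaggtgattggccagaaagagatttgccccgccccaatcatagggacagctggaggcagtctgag
Hmgcs1: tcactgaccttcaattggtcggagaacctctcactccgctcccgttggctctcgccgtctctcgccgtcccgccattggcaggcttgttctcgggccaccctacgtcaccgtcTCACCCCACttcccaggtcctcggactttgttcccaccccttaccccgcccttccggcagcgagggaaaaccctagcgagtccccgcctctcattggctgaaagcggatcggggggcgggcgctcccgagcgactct
Egln3: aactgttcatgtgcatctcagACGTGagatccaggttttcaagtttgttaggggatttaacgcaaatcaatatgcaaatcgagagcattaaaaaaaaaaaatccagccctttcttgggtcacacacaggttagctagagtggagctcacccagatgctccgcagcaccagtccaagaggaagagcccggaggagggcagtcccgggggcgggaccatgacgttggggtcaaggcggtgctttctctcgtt

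Both strands were searched in 32851 promoters of 27025 gene symbols, and a match is a string of letters and not a measured binding site. TGATGNAA occurred in 3.45% of all promoters, in 4 of the 18 matched members of the ATF4 list (*Atf3*, *Chac1*, *Nupr1* and *Vldlr*), in 3 of 9 of the transsulfuration, asparagine and proline list (*Asns*, *Got1* and *Pycr1*) and in 3 of 12 cytosolic aminoacyl-tRNA synthetases (*Aars*, *Gars* and *Tars*). It occurred in 0 of 13 matched serine synthesis and one-carbon enzymes. A match was counted whether or not the gene differed between the doses. *Atf3*, *Vldlr* and *Tars* did not pass the test described below (edgeR adjusted p = 0.179, 0.942 and 0.996). A list member was counted if any of its promoters matched, whereas the share over all promoters counts each promoter, so these shares differ in unit. TNGCGTG occurred in 4.10% of all promoters and in 1 of 11 matched AHR target genes, and GCGTG in 28.2% of all promoters. TCACNCCAC occurred in 1.05% of all promoters and in 1 of 15 sterol synthesis genes. ACGTG, which is also part of longer motifs, occurred in 16.6% of all promoters and in 14 of 23 glycolysis and hypoxia genes.

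The first comparison asks how many genes differed between the doses, and by how much. By edgeR's quasi-likelihood test with Benjamini-Hochberg adjustment over the 14894 genes, 2289 genes (15.4%) passed an adjusted p of 0.05 and are termed called here. Of these, 1120 (7.52% of all genes tested) were higher at 50 µM and 1169 (7.85%) were lower. Most differences were modest, with a median absolute log2 fold change of 0.44 among called genes, and 345 called genes differed by at least 1 on the log2 scale (190 higher and 155 lower). Of the genes tested, 429 would have been below the limit for testing without the 50 µM libraries (26 called, each higher) and 297 without those at 10 µM (4 called, each lower), and such genes are no support for a difference. The 4 libraries of one dose lay outside the range of the other dose for 2041 of the called genes and for 20.3% of all genes tested (9.43% with 50 µM higher and 10.9% with it lower). With vehicle as the reference, the same test called 61 genes (0.41%) at 10 µM and 2010 genes (13.5%) at 50 µM. These comparisons share their libraries with the one between the doses, so below their values are only set side by side. Where a rise or a value in brackets is given below without another unit, it is the log2 fold change of 50 µM over 10 µM.

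**Figure D1:**
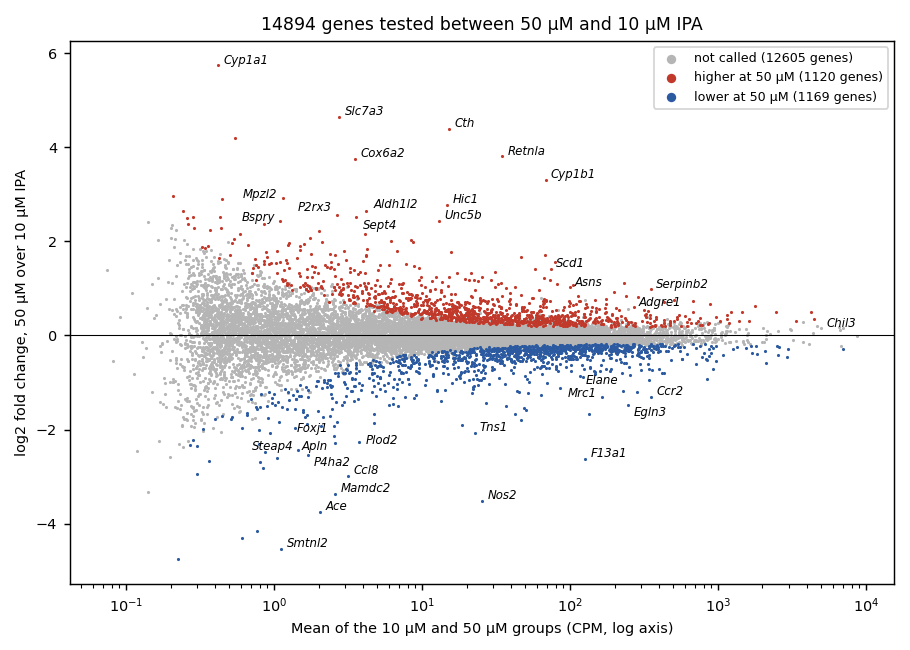
Each point is 1 of the 14894 genes tested, with the mean CPM of the 2 IPA groups on a log axis (x) and the log2 fold change of 50 µM over 10 µM IPA (y). The 1120 genes in red passed edgeR's test as higher at 50 µM and the 1169 in blue as lower. *Cth*, *Retnla* and *Cyp1b1* lie far above 0 at moderate levels, and *Nos2* and *F13a1* far below it.

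Where the doses did not overlap and the mean reached 1 CPM, *Slc7a3* and *Cth* had the largest log2 fold changes. *Slc7a3* (ENSMUSG00000031297, chromosome X, 101079210 to 101086020 on GRCm38), which encodes a cationic amino acid transporter, was at 0, 0.387, 0.301 and 0.183 CPM in the 4 libraries at 10 µM and at 5.03, 5.20, 4.18 and 6.80 CPM at 50 µM. Every library at 50 µM was far above all at 10 µM, of which replicate 1 had 0 counts (a value that allows up to 3). Without the 50 µM libraries *Slc7a3* would have been below the limit for testing, so its fold change is a description and its call is no support. The log2 fold change was 4.64 (standard error 0.42, edgeR adjusted p = 2.55e-06). *Cth* (ENSMUSG00000028179, chromosome 3, 157894248 to 157925077) encodes cystathionine gamma-lyase, which makes cysteine from methionine-derived cystathionine. It was at 1.56, 0.920, 1.54 and 1.47 CPM at 10 µM and at 20.2, 28.5, 36.4 and 30.9 CPM at 50 µM, which gave a log2 fold change of 4.38 (standard error 0.20, edgeR adjusted p = 2.73e-09). With vehicle, *Cth* lay at 0.870, 1.37, 1.39 and 1.95 CPM, a range that spans the 10 µM libraries, and the log2 fold change of 50 µM over vehicle was 4.38. *Aldh1l2*, a mitochondrial enzyme of folate metabolism, rose from 1.16 ± 0.426 CPM (SD, n = 4) to 7.21 ± 1.58 CPM (SD, n = 4) (log2 fold change 2.64).

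*Retnla*, an alternative activation gene, was the third of these rises. *Retnla* (ENSMUSG00000061100, chromosome 16, 48842551 to 48844461) encodes a small secreted protein of macrophages and was at 5.11, 6.49, 4.10 and 3.11 CPM at 10 µM and at 55.1, 73.7, 71.7 and 60.7 CPM at 50 µM. It was 14.0-fold higher at 50 µM (log2 fold change 3.80, standard error 0.16, edgeR adjusted p = 2.16e-09). The vehicle libraries held 0.492, 0.743, 0.717 and 0.318 CPM, below every library at 10 µM, and 10 µM was itself higher than vehicle (log2 fold change 3.04, edgeR adjusted p = 0.00399).

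The other largest rises came from genes of varied function. *Cox6a2*, a heart and muscle isoform of a cytochrome oxidase subunit, had a log2 fold change of 3.75 and overlaps *Itgad* on the other strand. *Hic1*, a transcriptional repressor, rose from 3.80 ± 0.687 CPM (SD, n = 4) to 25.8 ± 5.20 CPM (SD, n = 4) (log2 fold change 2.77), and the netrin receptor gene *Unc5b* from 4.07 ± 1.53 CPM (SD, n = 4) to 22.1 ± 2.46 CPM (SD, n = 4) (2.44). *Mpzl2*, the purinergic receptor gene *P2rx3*, the septin gene *Sept4* and *Bspry* had log2 fold changes of 2.92, 2.56, 2.53 and 2.43 at means of at most 6.07 CPM. Their adjusted p lay between 2.41e-08 and 0.00216 (edgeR). *Mpzl2* and *Bspry*, too, would have been below the limit for testing without the 50 µM libraries. *P2rx3* and *Mpzl2* overlap a gene on the other strand and *Sept4* one on its own strand. The strand setting of the counting is not given in the sources used here, so the same limit holds for other named genes with overlaps, among them *Aldh1l2*, *Psph*, *Slc6a9*, *Acss2*, *Serpinb2*, *Hif1a* and *Aars*.

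Of the 12 largest falls, *F13a1* and *Nos2* had the highest levels at 10 µM. *Nos2* (ENSMUSG00000020826, chromosome 11, 78920787 to 78960254), the inducible nitric oxide synthase of activated myeloid cells, was at 27.6, 38.8, 72.8 and 48.0 CPM at 10 µM and at 5.77, 1.69, 3.11 and 5.96 CPM at 50 µM. All libraries at 50 µM lay below all at 10 µM, and the log2 fold change was -3.52 (standard error 0.32, edgeR adjusted p = 3.01e-06). The vehicle libraries spread between 6.73 and 44.5 CPM, and the lowest of them lay close to the highest at 50 µM. *F13a1*, the coagulation factor XIII subunit made by monocytes, was at 163, 175, 273 and 266 CPM and at 52.1, 21.7, 28.3 and 39.8 CPM (log2 fold change -2.63, standard error 0.23, edgeR adjusted p = 1.62e-06). The focal adhesion gene *Tns1* fell from 36.6 ± 3.71 CPM (SD, n = 4) to 8.71 ± 2.53 CPM (SD, n = 4) (-2.07).

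The remaining large falls were at low levels. The chemokine gene *Ccl8* was at 7.93, 6.97, 3.57 and 3.94 CPM at 10 µM and at 1.47, 0.440, 0.437 and 0.546 CPM at 50 µM (log2 fold change -2.98, edgeR adjusted p = 6.07e-05), and *Ace*, angiotensin-converting enzyme, fell from 3.83 ± 0.792 CPM (SD, n = 4) to 0.274 ± 0.193 CPM (SD, n = 4) (-3.74). *Plod2* and *P4ha2*, which hydroxylate lysine and proline in collagen and are known hypoxia-responsive genes, had log2 fold changes of -2.26 and -2.54. *Apln*, which encodes the peptide apelin, and the metalloreductase gene *Steap4* had -2.28 and -2.44, and *Foxj1*, a transcription factor of ciliated cells, had -2.14. *Smtnl2* and *Mamdc2* had -4.54 and -3.37. *Smtnl2*, *Mamdc2* and *P4ha2* each had 1 library at 50 µM with 0 counts, a value that allows up to 3 counts (0.146 CPM in replicate 3, the library concerned in all of these cases, for counting error only). Adjusted p over these falls lay between 6.21e-06 and 0.00366 (edgeR).

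**Figure D2:**
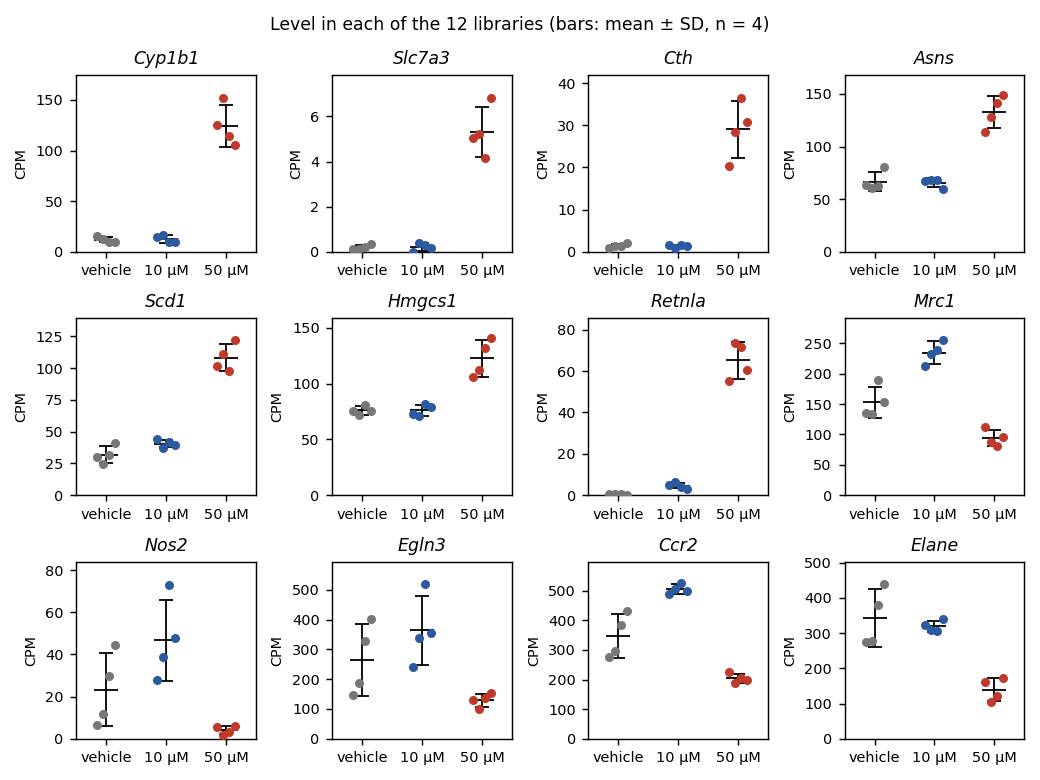
CPM (y) of 12 genes in each of the 12 libraries, grouped by dose (x), with points for libraries and bars for mean ± SD (n = 4). In every panel the 50 µM libraries lie outside the range of the 10 µM libraries. The vehicle libraries of *Nos2*, *Egln3* and *Ccr2* spread more widely than those at 50 µM.

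The dose comparison was then read by gene list. Of 52 lists, 22 had a share of members called higher at least 2 times the share among all genes (7.52%), 28 had such a share called lower (against 7.85%), and 7 had both. The lists are described by these counts and by their median log2 fold change, beside a median of 0.01 over all genes tested. The lists were chosen with earlier results of these data known, and some share members. How many of them pass such a share depends on that choice.

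**Figure D3:**
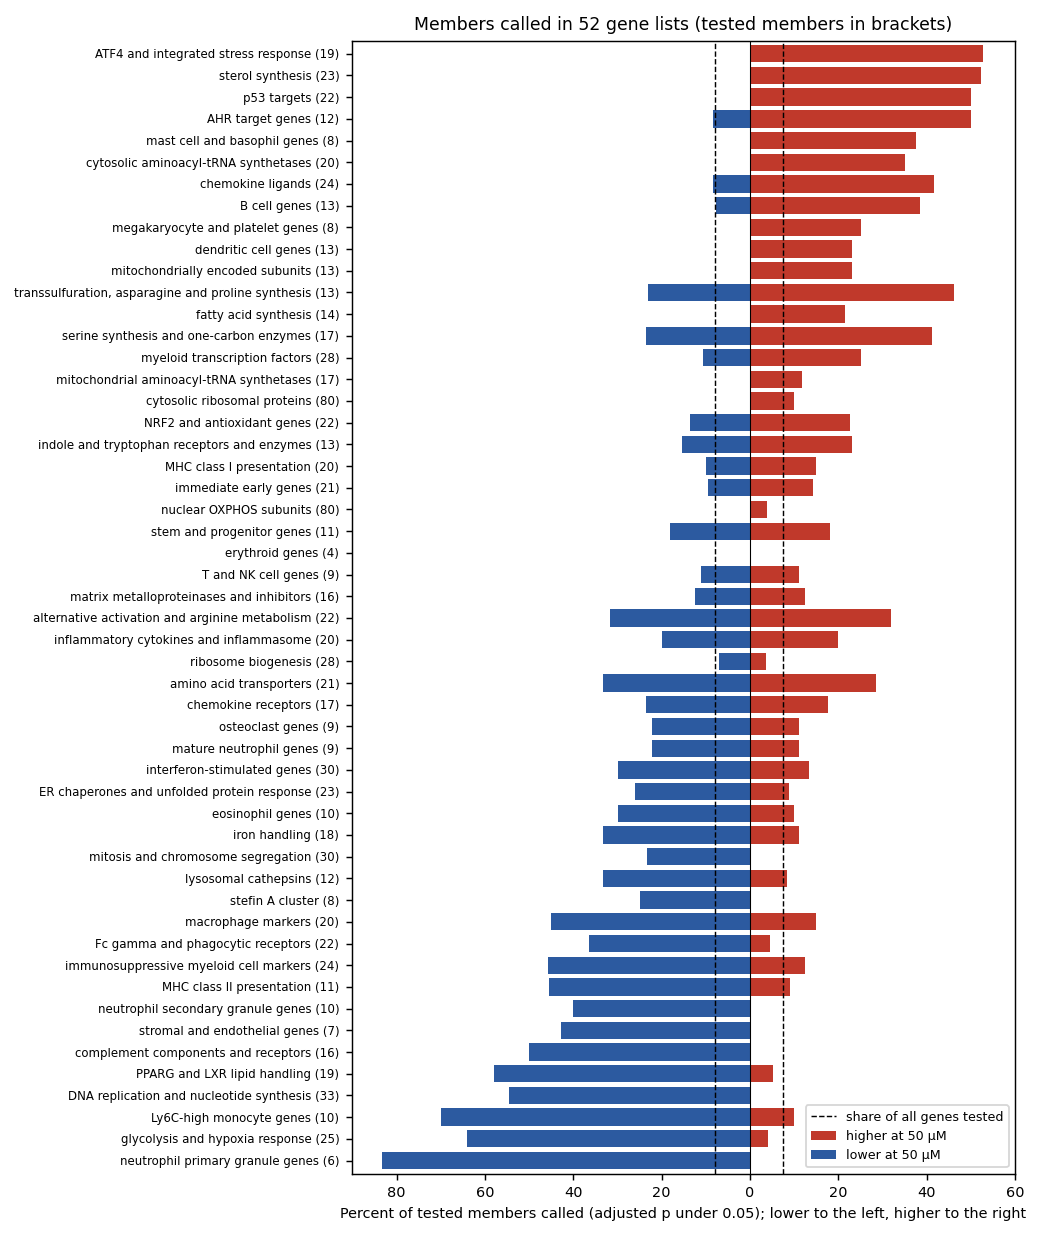
Percent of the tested members of 52 gene lists that were called higher (red, to the right) or lower (blue, to the left) at 50 µM than at 10 µM IPA, with the share over all genes as dashed lines (7.52% and 7.85%). ATF4, sterol synthesis, p53 and AHR lists lie at the top, and primary granule, hypoxia, Ly6C-high monocyte and DNA replication lists at the bottom.

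Several AHR target genes were higher at 50 µM. Of 12 tested members, 6 were called higher and 1 lower, with a median log2 fold change of 0.61. *Cyp1b1* (ENSMUSG00000024087, chromosome 17, 79701537 to 79715061), a cytochrome P450 enzyme, was at 14.9, 16.7, 9.22 and 9.66 CPM at 10 µM and at 125, 152, 114 and 105 CPM at 50 µM, 9.90-fold higher (log2 fold change 3.31, standard error 0.17, edgeR adjusted p = 7.21e-09). The vehicle libraries held 15.9, 12.1, 10.0 and 9.94 CPM and overlapped those at 10 µM. *Cyp1a1*, the best known AHR target, had 1 count over all 4 libraries at 10 µM and 76 counts over those at 50 µM, a ratio of 79.7 after scaling to library size (95% exact interval for counting error 13.9 to 3189). Its level stayed between 0.294 and 1.36 CPM at 50 µM. Without these libraries *Cyp1a1* would have been below the limit for testing, so its values are a description, and of the other 11 members 5 were higher and 1 lower (median 0.60).

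Other AHR targets were also measured. *Ahrr*, which encodes a repressor of AHR, was at 55.5, 59.4, 46.3 and 44.3 CPM at 10 µM and at 80.0, 90.4, 91.0 and 85.3 CPM at 50 µM (log2 fold change 0.76, edgeR adjusted p = 4.00e-05). *Tiparp*, an ADP-ribosyltransferase that also feeds back on AHR, had a log2 fold change of 0.60, the quinone reductase gene *Nqo1* 0.77 and *Serpinb2* 0.98, with no overlap between the doses. *Serpinb2* rose from 236 ± 13.4 CPM (SD, n = 4) to 465 ± 61.6 CPM (SD, n = 4). *Ahr* itself lay between 65.0 and 78.8 CPM at 10 µM and between 84.8 and 93.2 CPM at 50 µM (log2 fold change 0.31, edgeR adjusted p = 0.00848), and *Nfe2l2*, which encodes NRF2, was the member that fell (-0.29).

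Receptors and enzymes of tryptophan and its metabolites moved in both directions. Of 13 tested members of that list, 3 were higher and 2 lower. *Kmo*, kynurenine 3-monooxygenase, rose (0.73), as did the tryptophanyl-tRNA synthetase gene *Wars* (0.42) and *Ahr*. The receptor gene *Gpr35* was at 51.4, 56.9, 57.1 and 52.0 CPM at 10 µM and at 20.5, 20.2, 17.8 and 17.8 CPM at 50 µM, a fall of 2.84-fold (log2 fold change -1.51, standard error 0.08, edgeR adjusted p = 1.31e-08). The fatty acid receptor gene *Gpr84* fell as well (-0.55, edgeR adjusted p = 0.00580), although the highest library at 50 µM lay just above the lowest at 10 µM.

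Many genes of the integrated stress response rose. Of 19 tested members of the ATF4 list, 10 were higher and none lower, with a median of 0.42. *Atf4* itself, chosen after its values were seen, was at 264, 282, 293 and 268 CPM at 10 µM and at 356, 379.8, 444 and 409 CPM at 50 µM, 1.44-fold higher (log2 fold change 0.52, standard error 0.07, edgeR adjusted p = 0.000146). *Gdf15*, a stress-induced cytokine, rose from 2.45 ± 0.651 CPM (SD, n = 4) to 9.86 ± 2.96 CPM (SD, n = 4) (2.01). The pseudokinase gene *Trib3* was at 13.4, 15.9, 16.9 and 14.7 CPM and at 27.4, 35.0, 36.4 and 44.1 CPM (1.24), and *Chac1*, which degrades glutathione, had a log2 fold change of 1.15. *Ddit3*, which encodes CHOP, rose by 0.96, *Nupr1* by 0.72 and the mTORC1 inhibitor gene *Ddit4* by 0.69. Adjusted p of the named members was at most 0.00727 (edgeR). *Ddit3* is listed under 2 identifiers, of which 1 passed the limit for testing, and it overlaps *Mars* on the other strand, so its counts are uncertain.

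Enzymes that make amino acids rose in part. In the list of transsulfuration, asparagine and proline synthesis, 6 of 13 members were higher and 3 lower, with a median of -0.05. *Asns*, asparagine synthetase, was at 67.0, 68.6, 68.0 and 59.3 CPM at 10 µM and at 113, 128, 142 and 149 CPM at 50 µM (log2 fold change 1.02, standard error 0.08, edgeR adjusted p = 1.25e-06). The proline synthesis genes *Pycr1* and *Aldh18a1* rose by 1.52 and 0.43, and the alanine aminotransferase gene *Gpt2* by 1.19. *Mat2a*, which makes S-adenosylmethionine, was among those that fell (-0.32).

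Serine synthesis and one-carbon enzymes moved in both directions. Of 17 members, 7 were higher and 4 lower, with a median of 0.04. After *Aldh1l2*, the serine synthesis genes *Psph* (0.81) and *Psat1* (0.53) and the mitochondrial folate enzymes *Mthfd2* (0.76) and *Shmt2* (0.58) rose. *Mthfd2* was at 119, 118, 103 and 103 CPM at 10 µM and at 176, 183, 186 and 202 CPM at 50 µM (edgeR adjusted p = 3.64e-06). Among the members that fell were the thymidylate synthase gene *Tyms* (-0.33), *Mthfd1l* (-0.39) and the cytosolic *Shmt1* (-0.36). The calls of *Tyms* and *Shmt1* were lost when single libraries were left out. For *Tyms* these were replicate 2 or 3 at 10 µM and replicate 4 at 50 µM (edgeR adjusted p 0.0745, 0.0536 and 0.0684), and for *Shmt1* replicates 3 and 4 at 50 µM (0.0517 and 0.0668).

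Amino acid transporters changed in both directions, 6 of 21 higher and 7 lower (5 of 20 higher without *Slc7a3*). With 1 library left out, the number lower fell to 3 without replicate 2 or 3 at 10 µM or replicate 2 at 50 µM, and to 4 without replicate 3 or 4 at 50 µM. The glycine transporter gene *Slc6a9* rose by 1.79, *Slc1a4* and *Slc1a5*, which carry neutral amino acids, by 1.07 and 0.46, and the leucine transporter gene *Slc7a5* by 0.42. The largest fall was that of *Slc7a2*, the arginine transporter of activated macrophages, which was at 327, 398, 469 and 390.4 CPM at 10 µM and at 195, 169, 143 and 176 CPM at 50 µM (-1.21, standard error 0.10, edgeR adjusted p = 1.62e-06). 

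Some cytosolic aminoacyl-tRNA synthetases, which charge tRNAs, rose. Of 20 members, 7 were higher and none lower, with a median of 0.16, and 11 were higher when replicate 3 at 50 µM was left out. *Wars* was at 76.2, 75.9, 72.7 and 72.2 CPM at 10 µM and at 98.1, 108, 87.3 and 102 CPM at 50 µM, and *Cars*, *Sars*, *Gars*, *Aars* and *Yars* had log2 fold changes between 0.31 and 0.41. Their adjusted p was at most 0.00642 (edgeR).

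Some chaperones of the endoplasmic reticulum fell. Of 23 members, 6 were lower and 2 higher, with a median of -0.14, and 3 were lower when replicate 4 at 50 µM was left out. The co-chaperone genes *Dnajb9* and *Dnajc3* fell. *Dnajb9* was at 50.8, 52.1, 47.6 and 47.8 CPM at 10 µM and at 33.4, 29.2, 29.3 and 27.0 CPM at 50 µM (-0.73, standard error 0.08, edgeR adjusted p = 1.36e-05), and *Dnajc3* had a log2 fold change of -0.42. The protein disulfide isomerase gene *P4hb* fell by 0.27 on the log2 scale, and the transcription factor gene *Xbp1* rose by 0.27.

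**Figure D4:**
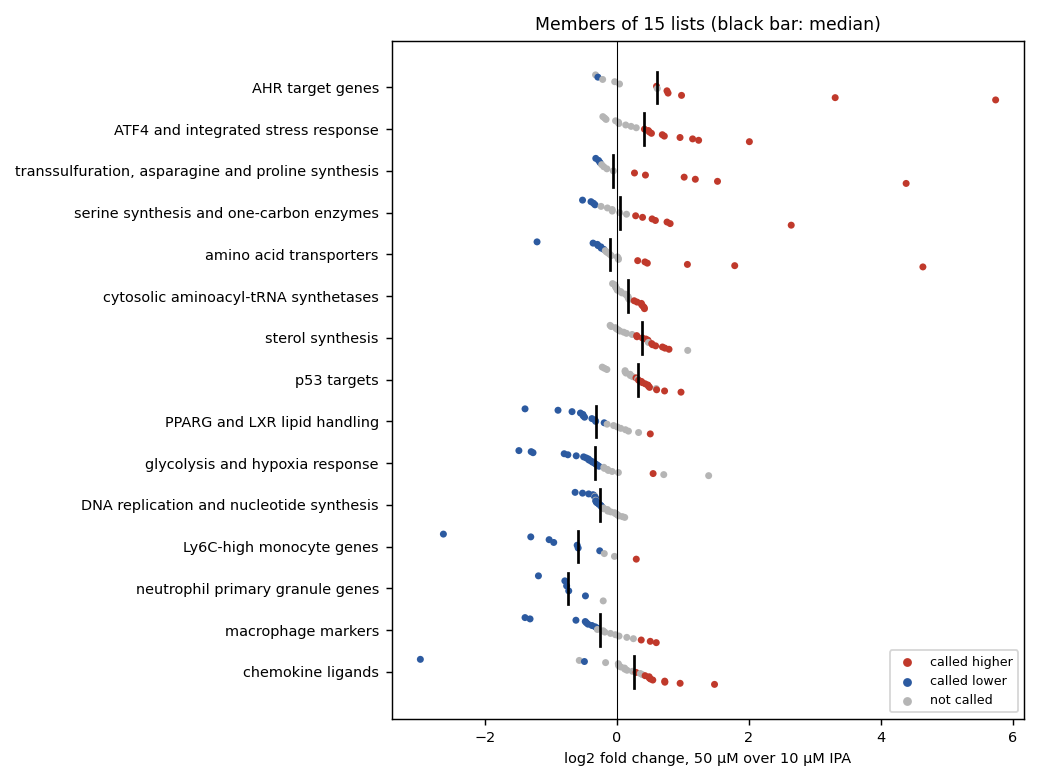
Log2 fold change of 50 µM over 10 µM IPA (x) for the tested members of 15 lists (y), with called members in red or blue, members not called in grey, and a black bar at the median of each list. The medians of the AHR, ATF4, sterol synthesis and p53 lists lie between 0.32 and 0.61, and those of the Ly6C-high monocyte and primary granule lists at -0.59 and -0.75.

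Many sterol synthesis genes rose. Of 23 members, 12 were higher and none lower, with a median of 0.38. *Hmgcs1*, an early enzyme of the pathway, was at 72.6, 71.5, 81.7 and 79.2 CPM at 10 µM and at 106, 112, 132 and 141 CPM at 50 µM (0.69, standard error 0.09, edgeR adjusted p = 7.47e-05). The later enzymes *Mvd*, *Fdft1*, *Tm7sf2* and *Sc5d* had log2 fold changes of 0.54, 0.53, 0.73 and 0.79, with no overlap between the doses. The adjusted p of the named members was at most 0.00399 (edgeR), and *Fdft1* and *Tm7sf2* overlap other genes.

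Fatty acid synthesis had 3 of 14 members higher and none lower, or 5 without replicate 3 at 50 µM. *Scd1*, which desaturates stearate, was at 44.3, 37.2, 41.6 and 39.5 CPM at 10 µM and at 102, 111, 97.7 and 122 CPM at 50 µM, 2.67-fold higher (log2 fold change 1.41, standard error 0.08, edgeR adjusted p = 2.41e-08). *Acss2*, which makes acetyl-CoA from acetate, and the elongase gene *Elovl5* rose by 1.05 and 0.24.

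Many lipid handling genes of PPARG and LXR fell. Of 19 tested members, 11 were lower and 1 higher, with a median of -0.32. *Apoe*, which encodes apolipoprotein E, was at 21.4, 20.2, 17.6 and 18.7 CPM at 10 µM and at 7.52, 6.34, 8.93 and 6.89 CPM at 50 µM, 2.63-fold lower (log2 fold change -1.39, standard error 0.12, edgeR adjusted p = 1.94e-06). The cholesterol exporter genes *Abca1* and *Abcg1* fell as well. *Abca1* was at 138, 167, 179 and 155 CPM and at 109, 88.6, 69.4 and 76.4 CPM (-0.89), and *Abcg1* had -0.51. *Pparg* itself was at 35.8, 30.8, 33.7 and 29.4 CPM and at 23.9, 18.0, 18.7 and 20.3 CPM (-0.68), and *Cpt1a*, which admits fatty acids to mitochondria, and *Angptl4* had -0.51 and -0.55. The member that rose was *Lpl*, the lipoprotein lipase gene, chosen for mention after its values were seen, which went from 2049 ± 101 CPM (SD, n = 4) to 2902 ± 93.1 CPM (SD, n = 4) (0.51). The summed level of the list, to which *Lpl* contributed most, was higher at 50 µM (4142 to 4370 CPM) than at 10 µM (3558 to 3890 CPM) or with vehicle (2814 to 3162 CPM) although most members fell.

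Most glycolysis and hypoxia genes fell. Of 25 members, 16 were lower and 1 higher, with a median of -0.34 (-0.35 over 24 without a second, low identifier of *Aldoa* that needed the 50 µM libraries to be tested), and their summed level went from between 16506 and 18923 CPM at 10 µM to between 13318 and 14020 CPM at 50 µM. *Egln3*, a prolyl hydroxylase that marks HIF for degradation and is itself a HIF target, was at 241, 339, 519 and 354 CPM at 10 µM and at 129, 101, 135 and 153 CPM at 50 µM (-1.48, standard error 0.17, edgeR adjusted p = 3.26e-05). *Ankrd37* and the mitophagy gene *Bnip3*, also known HIF targets, fell by 1.30 and 1.27 on the log2 scale. The lactate exporter gene *Slc16a3* was at 487, 543, 656 and 516 CPM and at 332, 309, 316 and 307 CPM (-0.80). The glucose transporter gene *Slc2a1* and the kinase gene *Pfkfb3*, which drives phosphofructokinase, had -0.74 and -0.62. *Hif1a* was the member that rose, from 258 ± 22.5 CPM (SD, n = 4) to 376 ± 13.6 CPM (SD, n = 4) (0.55, edgeR adjusted p = 5.01e-05), and was named after its values were seen.

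The vehicle libraries spread widely in these genes. Summed levels of the glycolysis and hypoxia list lay between 13571 and 18358 CPM with vehicle, and *Egln3* between 145 and 402 CPM. By the test against vehicle, *Egln3* was lower at 50 µM (-1.03, edgeR adjusted p = 0.0172), with a log2 fold change of 0.46 at 10 µM (adjusted p = 0.766). *Bnip3* did not pass the test against vehicle at either dose (edgeR adjusted p = 0.658 and 0.130).

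Iron handling genes included 6 lower and 2 higher of 18. After *Steap4*, its relative *Steap3* fell by 0.93 on the log2 scale, the haem oxygenase gene *Hmox1* by 0.58, the metal importer gene *Slc39a14* by 0.48 and the transferrin receptor gene *Tfrc* by 0.44. *Tfrc* was at 308, 309.8, 289.7 and 295 CPM at 10 µM and at 248, 225, 213 and 197 CPM at 50 µM (edgeR adjusted p = 0.000515). The ferroportin gene *Slc40a1* was the sixth (-0.30), and its call was lost without replicate 2 at 50 µM (edgeR adjusted p = 0.0585). The members that rose were *Cp*, which encodes ceruloplasmin (1.12), and the ferritin gene *Ftl1* (0.35). *Hmox1* is shared with the NRF2 list, where 5 of 22 members were higher and 3 lower, and the number higher was 3 without replicate 2 or 3 at 10 µM. Besides *Nqo1*, *Osgin1* (0.72) and catalase, *Cat* (0.30), were among those that rose.

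Many targets of p53 rose. Of 22 members, 11 were higher and none lower, with a median of 0.32. *Pmaip1*, which encodes the pro-apoptotic protein NOXA, was at 50.7, 50.3, 50.2 and 57.8 CPM at 10 µM and at 80.6, 87.2, 87.8 and 88.2 CPM at 50 µM (0.72, standard error 0.07, edgeR adjusted p = 5.33e-06). The DNA repair genes *Ddb2* and *Polk* rose by 0.97 and 0.60, *Zmat3* by 0.48 and the kinase gene *Plk2* by 0.47. *Bbc3*, which encodes PUMA, rose by 0.50, a call that was lost without replicate 4 at 50 µM (edgeR adjusted p = 0.0557). The cell cycle inhibitor gene *Cdkn1a* and the p53 ligase gene *Mdm2*, chosen after their values were seen, were at 369, 396, 408 and 356 and at 132, 137, 142 and 131 CPM at 10 µM. At 50 µM they were at 462, 485, 453 and 514 and at 161, 179.7, 189 and 177 CPM (log2 fold changes 0.33 and 0.39). Some p53 targets are also known ATF4 targets, and the lists were not made exclusive.

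Many DNA replication genes fell. Of 33 members, 18 were lower and none higher, with a median of -0.26. *Ccne2*, a cyclin of entry into S phase, was at 44.7, 47.8, 43.7 and 38.5 CPM at 10 µM and at 28.9, 27.1, 29.7 and 26.8 CPM at 50 µM (-0.63, standard error 0.08, edgeR adjusted p = 7.84e-05). *Mcm5* and *Mcm3*, subunits of the replicative helicase, fell by 0.36 and 0.34 on the log2 scale. Mitosis genes were lower in 7 of 30 and higher in none, with a median of -0.09, and in 4 without replicate 2 at 50 µM. *Kif20a*, a kinesin of cell division, and the cyclin gene *Ccna2* had log2 fold changes of -0.42 and -0.33, and *Bub1* and *Cdc20*, genes of the spindle checkpoint, -0.32 and -0.30.

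Of 80 ribosomal protein genes, 8 were called higher and none lower, near the share over all genes, with a median of 0.17. Leaving out a single library moved this count, to 26 without replicate 1 at 10 µM, to 5 without replicate 2, to 1 without replicate 3 or 4, and to 3 without replicate 3 at 50 µM. Nuclear genes of oxidative phosphorylation had 3 of 80 higher (*Uqcrq*, *Cox7c* and *Uqcrc2*), below the share over all genes, and 10 without replicate 1 at 10 µM.

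Most genes that mark Ly6C-high monocytes were lower at 50 µM. Of 10 members, 7 were lower and 1 higher, with a median of -0.59, and their summed level lay between 4877 and 5828 CPM at 10 µM and between 3122 and 3885 CPM at 50 µM. With vehicle the sums lay between 3513 and 4461 CPM, below every library at 10 µM and overlapping those at 50 µM. *Ccr2* (ENSMUSG00000049103, chromosome 9, 124101950 to 124113557), the receptor by which monocytes leave the bone marrow, was at 487, 507, 527 and 499.9 CPM at 10 µM and at 225, 189, 204 and 198 CPM at 50 µM. It was 2.47-fold lower with no overlap (log2 fold change -1.31, standard error 0.07, edgeR adjusted p = 7.21e-09). For *Ccr2* alone, the vehicle libraries lay in between, at 277, 296, 385 and 429.9 CPM. At 10 µM the difference from vehicle was 0.54 on the log2 scale (edgeR adjusted p = 0.0975), and at 50 µM it was -0.76 (adjusted p = 0.00153).

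The other monocyte genes differed in size. Beside *F13a1*, *Vcan*, a matrix proteoglycan gene, was at 423, 412, 466 and 516 CPM at 10 µM and at 289, 248, 187 and 209 CPM at 50 µM (-0.96), and *Ms4a6c* had -1.03. The haptoglobin gene *Hp* and the fibronectin gene *Fn1* fell by 0.60 and 0.59 on the log2 scale, and adjusted p of these was at most 0.00195 (edgeR). *Ly6c2*, which encodes the antigen that names these monocytes, fell least, from 551, 556, 524 and 508 CPM to 489, 362, 462 and 469 CPM (-0.26, edgeR adjusted p = 0.0431). That call was lost in 6 of the 8 leave-one-out fits, those without replicate 1, 2 or 3 at 10 µM or replicate 2, 3 or 4 at 50 µM (edgeR adjusted p 0.0508 to 0.118). It was also lost with all 12 libraries in the fit (0.138). The transcription factor gene *Irf8*, named after its values were seen, was the member that rose (0.29).

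Most genes for the primary granules of immature neutrophils fell. Of 6 primary granule genes, 5 were lower, with a median of -0.75, and their summed level went from between 1559 and 1739 CPM at 10 µM to between 789.2 and 1127 CPM at 50 µM (1646 to 2378 CPM with vehicle). *Elane*, neutrophil elastase, was at 322, 308, 305 and 341 CPM at 10 µM and at 160.0, 105, 121 and 172 CPM at 50 µM (-1.19, standard error 0.12, edgeR adjusted p = 6.55e-06). *Mpo*, myeloperoxidase, *Ms4a3* and *Prtn3*, proteinase 3, had log2 fold changes of -0.79, -0.76 and -0.73, and *Prss57* had -0.48. *Ctsg*, cathepsin G, the sixth, had -0.21 (edgeR adjusted p = 0.193), with overlapping groups.

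Later granule genes and genes of mature neutrophils were counted next. Of 10 secondary granule genes, 4 were lower (*Olfm4*, *Cd177*, *Camp* and *Ltf*) and none higher (median over the 10 of -0.14), the called members with log2 fold changes between -0.68 and -0.47. *Ltf*, lactoferrin, was at 3195, 2939.6, 3478 and 3959 CPM at 10 µM and at 2640.2, 2118, 2357 and 2689 CPM at 50 µM (edgeR adjusted p = 0.00261). Of 9 genes of mature neutrophils, the chemokine receptor gene *Cxcr2* (-0.75) and *Retnlg* (-0.55) were lower and the gelatinase gene *Mmp9* higher (0.27), with a median of -0.16, and 5 were lower without replicate 3 at 50 µM. *Retnlg* was no longer called with all 12 libraries in the fit (edgeR adjusted p = 0.0861). *Ly6g*, the antigen of neutrophils, lay between 47.2 and 56.4 CPM and between 46.2 and 63.0 CPM (0.08, edgeR adjusted p = 0.634). In the stefin A cluster of protease inhibitors, whose members are close copies and may share reads, *Stfa1* (-0.60) and BC100530 (-0.76) were lower among 8 tested, and 4 were lower without replicate 3 at 50 µM.

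Macrophage markers split. Of 20 members, 9 were lower and 3 higher, with a median of -0.25, while their summed level overlapped between the doses (5832 to 6811 CPM at 10 µM and 6279 to 6803 CPM at 50 µM). *Mrc1*, the mannose receptor CD206, was at 212, 232, 238 and 256 CPM at 10 µM and at 112, 88.1, 80.6 and 95.3 CPM at 50 µM, 2.49-fold lower (log2 fold change -1.32, standard error 0.09, edgeR adjusted p = 1.96e-07). The Fc receptor gene *Fcgr1*, the efferocytosis receptor gene *Mertk* and the growth factor receptor gene *Csf1r* had -0.62, -0.48 and -0.44. *Adgre1*, which encodes the macrophage antigen F4/80, rose instead, from 231, 225, 207 and 196 CPM to 318, 339, 315 and 324 CPM (0.60, edgeR adjusted p = 1.60e-05). *Gpnmb* and the cathepsin gene *Ctsl* rose by 0.51 and 0.37. *Itgam*, with 0.19 (edgeR adjusted p = 0.0694), did not pass, and it passed with DESeq2 (0.0450) and with an offset for exon length (0.0353).

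**Figure D5:**
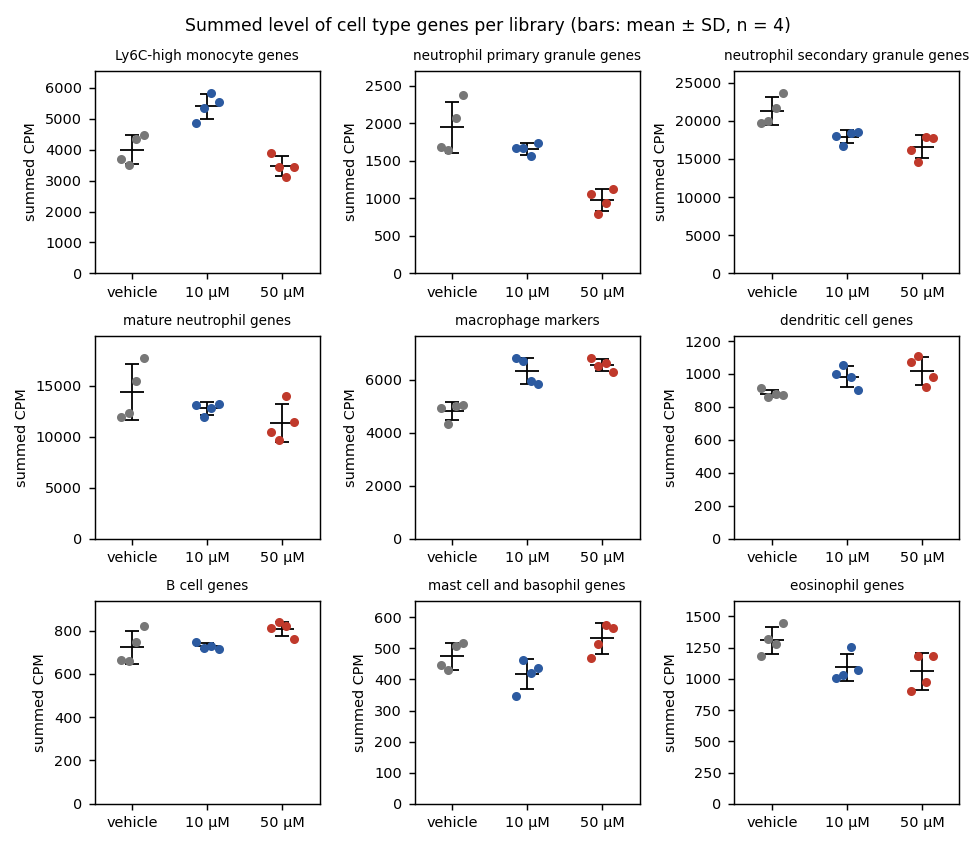
Summed CPM (y) of the tested genes of 9 cell type lists in each of the 12 libraries by dose (x), with bars for mean ± SD (n = 4). The 50 µM libraries lie below the 10 µM libraries for Ly6C-high monocyte and primary granule genes, and the doses overlap for macrophage, dendritic cell, mature neutrophil and eosinophil lists.

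Alternative activation genes did not move as a block. Of 22 members, 7 were higher and 7 lower. Next to the rise of *Retnla* and the fall of *Mrc1* and *Nos2*, the lectin gene *Mgl2* was at 371, 396, 383 and 349 CPM at 10 µM and at 567, 693, 675 and 592 CPM at 50 µM (0.76, edgeR adjusted p = 4.64e-06), and the signalling inhibitor gene *Socs2* rose by 0.73. *Chil3*, a chitinase-like protein, lay between 4585 and 5085 CPM and between 4772 and 5984 CPM and had 0.15 (edgeR adjusted p = 0.173), with overlapping groups.

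Genes that mark immunosuppressive myeloid cells were lower in 11 and higher in 3 of 24, with a median of -0.22. The interleukin gene *Il1b* was at 203, 237, 274 and 223 CPM at 10 µM and at 149, 145, 155 and 120.3 CPM at 50 µM (-0.72, standard error 0.09, edgeR adjusted p = 8.53e-05), and *Ptgs2*, cyclooxygenase 2, fell from 9.42 ± 1.15 CPM (SD, n = 4) to 5.42 ± 0.555 CPM (SD, n = 4) (-0.79). *Spp1*, osteopontin, lay between 3011 and 3430.0 CPM and between 2397 and 3196 CPM (-0.28, edgeR adjusted p = 0.0293). Its groups overlapped, its call was lost in 6 of the 8 leave-one-out fits, all but those without replicate 4 at 10 µM or replicate 3 at 50 µM (edgeR adjusted p 0.0561 to 0.103; 0.202 with all 12 libraries in the fit), and it overlaps *Gm42793* on the same strand. Among inflammatory cytokines, the tumour necrosis factor gene *Tnf* was at 48.5, 51.0, 50.6 and 50.9 CPM at 10 µM and at 76.5, 75.2, 87.2 and 82.0 CPM at 50 µM (0.68, edgeR adjusted p = 8.25e-06), and *Lif* rose from 3.36 ± 0.859 CPM (SD, n = 4) to 13.5 ± 2.34 CPM (SD, n = 4) (2.03). In that list 4 of 20 members were higher and 4 lower, the others being *Pycard* (0.44) and *Il1rn* (0.25) among the higher and *Nlrp3* (-0.24) among the lower. The call of *Nlrp3* was lost in 6 of the 8 leave-one-out fits, all but those without replicate 1 or 4 at 10 µM (edgeR adjusted p 0.0510 to 0.108), and with all 12 libraries in the fit (0.0648).

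Chemokine ligands were higher at 50 µM in 10 of 24 and lower in 2, with a median of 0.26. *Ccl24*, a ligand of the eosinophil receptor, was at 5.61, 5.62, 4.03 and 3.53 CPM at 10 µM and at 16.5, 19.2, 10.6 and 5.92 CPM at 50 µM (1.48, standard error 0.28, edgeR adjusted p = 0.00207), with replicate 4 at 50 µM close to the 10 µM libraries. *Ccl22* rose from 515 ± 81.7 CPM (SD, n = 4) to 850.5 ± 117 CPM (SD, n = 4) (0.73), the platelet chemokine gene *Ppbp* by 0.72 and *Ccl2*, a ligand of CCR2, by 0.54. *Cxcl5* rose by 0.96, a call lost without replicate 2 at 50 µM (edgeR adjusted p = 0.0649). Beside *Ccl8*, *Cxcl16* was lower (-0.49), named after its values were seen. Of 17 chemokine receptors, 4 were lower and 3 higher. *Ccr2*, the fractalkine receptor gene *Cx3cr1* (-1.10) and *Cxcr2* were among the lower, and *Ccr7* (0.39), *Ccr3* (1.06) and *Ccr4* (0.65) were higher. The call of *Ccr3* was lost without replicate 3 at 10 µM or replicate 2 or 3 at 50 µM (edgeR adjusted p up to 0.0751), and that of *Ccr4* without replicate 3 at 10 µM or replicate 2 at 50 µM (up to 0.0769).

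Antigen presentation and phagocytosis genes fell in part, and MHC class I genes moved in both directions. In the list of MHC class I presentation, 3 of 20 members were higher and 2 lower, with a median of 0.08. *H2-Q7*, *H2-Q6* and *H2-T22* rose by 0.99, 0.87 and 0.29, and *B2m* and *Erap1* had -0.27 and -0.24. The call of *H2-T22* was lost in 7 of the 8 leave-one-out fits and that of *B2m* in 6. In the list of MHC class II presentation, 5 of 11 members were lower and 1 higher. *H2-Ab1*, a class II chain gene, was at 739, 689, 661 and 614 CPM at 10 µM and at 502, 506, 503 and 394 CPM at 50 µM (-0.50, standard error 0.08, edgeR adjusted p = 0.000751). *H2-Aa* and *H2-Eb1* had -0.40 and -0.33, and *Ctss*, the protease that clears the invariant chain, -0.53. *Cd74*, the invariant chain gene, had -0.24, and its call was lost in 5 of the 8 leave-one-out fits, those without replicate 1, 2 or 3 at 10 µM or replicate 1 or 4 at 50 µM (edgeR adjusted p 0.0510 to 0.105). *H2-Ob*, which encodes a chain of the class II modulator of B cells, was higher (0.56), with an adjusted p of 0.0509 when all 12 libraries were in the fit.

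Cathepsins were lower in 4 of 12 members and higher in 1 (*Ctsl*), led by *Ctsk* (-1.01) and *Ctsc*, which activates granule proteases and was at 1186, 1162, 1192 and 1083 CPM at 10 µM and at 742, 686, 705 and 680.1 CPM at 50 µM (-0.71, edgeR adjusted p = 1.04e-06). Complement genes were lower in 8 of 16 and higher in none. *C1qa*, a chain of the first component, was at 103, 95.0, 75.3 and 73.6 CPM and at 65.1, 56.0, 69.8 and 60.5 CPM (-0.46), and the anaphylatoxin receptor genes *C3ar1* and *C5ar2* had -0.49 and -0.48. Of 22 Fc gamma and phagocytic receptor genes, 8 were lower and 1 higher. The haemoglobin scavenger receptor gene *Cd163* fell by 1.56 on the log2 scale, the bridging molecule gene *Mfge8* by 0.46, and the Toll-like receptor gene *Tlr2* was at 463, 438, 402 and 389.8 CPM at 10 µM and at 267, 234, 271 and 254 CPM at 50 µM (-0.72, edgeR adjusted p = 5.90e-06). The member that rose was *Axl* (0.27), named after its values were seen.

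Interferon-stimulated genes were lower in 9 of 30 and higher in 4. *Ifit2*, *Ifit3* and *Rsad2* fell by 0.62, 1.37 and 0.66 on the log2 scale, *Ifit3* from 1.84 ± 0.474 CPM (SD, n = 4) to 0.708 ± 0.193 CPM (SD, n = 4). *Stat2* and *Irf1*, transcription factors of interferon signalling, rose by 0.58 and 0.39, and *Mx1* and *Usp18* by 0.78 and 0.57. *Mx1* was no longer called with all 12 libraries in the fit (edgeR adjusted p = 0.0570), nor *Usp18* without replicate 2 at 50 µM (0.0600).

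Among myeloid transcription factors, 7 of 28 were higher and 3 lower. *Klf4*, a factor of monocyte differentiation, was at 42.1, 43.3, 44.8 and 43.6 CPM at 10 µM and at 25.9, 20.1, 21.0 and 25.9 CPM at 50 µM (-0.90, standard error 0.09, edgeR adjusted p = 7.69e-06). *Tfec* (-0.51) and *Cebpd* (-0.34) also fell, *Cebpd* being named after its values were seen. The interferon regulatory factor genes *Irf4* and *Irf5* rose by 0.45 and 0.45, *Egr2* by 0.46 and *Batf3*, a factor of dendritic cells, by 0.54. Dendritic cell genes were higher in 3 of 13 and lower in none (*Cd83* with 0.83, *Batf3* and *Ccr7*), and their summed level overlapped between the doses (900.9 to 1053 CPM and 920.3 to 1107 CPM).

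Markers of other cells that a bone marrow culture can hold were counted in the same way. B cell genes were higher in 5 of 13 and lower in 1, with a median of 0.63 and a summed level of 715.9 to 747.1 CPM at 10 µM and 763.1 to 839.8 CPM at 50 µM (660.7 to 822.8 CPM with vehicle). The B cell factor gene *Pax5* was at 2.43, 3.73, 4.40 and 4.81 CPM and at 8.89, 9.12, 7.72 and 5.75 CPM (1.04, edgeR adjusted p = 0.00285), and *Cd79a*, *Cd79b* and *Ms4a1* had 0.87, 0.64 and 0.72. The call of *Ms4a1* was lost without replicate 3 at 10 µM or replicate 2 at 50 µM (edgeR adjusted p 0.0546 and 0.0707). Of the early B cell genes in the list, *Vpreb1*, *Igll1* and *Rag2* were below the limit for testing, and *Rag1*, *Vpreb3* and *Ebf1* were tested and not called (0.65, 0.42 and 0.63, edgeR adjusted p = 0.195, 0.614 and 0.238). *Blnk*, which myeloid cells also express, was the member that fell (-0.39), a call lost in 4 of the 8 leave-one-out fits, those without replicate 1 or 2 at 10 µM or replicate 3 or 4 at 50 µM (up to 0.0859).

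Mast cell and basophil genes were higher in 3 of 8 and lower in none, with a summed level of 347.4 to 461.2 CPM at 10 µM and 469.5 to 576.6 CPM at 50 µM (429.0 to 515.7 CPM with vehicle). *Gata2*, a transcription factor of mast cells and progenitors, was at 37.3, 50.1, 47.4 and 45.8 CPM at 10 µM and at 97.9, 108, 92.8 and 108 CPM at 50 µM (1.18, standard error 0.09, edgeR adjusted p = 5.21e-07). The basophil protease gene *Prss34* and the histidine decarboxylase gene *Hdc* rose by 0.52 and 0.43, and 5 of the 13 genes of the list, the mast cell protease genes *Mcpt4*, *Tpsab1* and *Cma1* among them, were below the limit for testing. The protease genes *Cpa3* and *Mcpt8* were tested and not called (0.23 and -0.29, edgeR adjusted p = 0.105 and 0.130). Eosinophil genes were lower in 3 of 10, the ribonuclease genes *Ear2* (-0.79), *Ear1* (-0.73) and *Ear6* (-0.54), which are close copies of each other and may share reads, and *Ccr3* was higher. Stromal and endothelial genes were lower in 3 of 7 tested (*Lepr*, *Acta2* and *Pecam1*), with summed levels of 81.1 to 95.3 CPM at 10 µM and 57.1 to 68.8 CPM at 50 µM (61.7 to 81.4 CPM with vehicle), and 5 of the 12 genes of the list, *Col1a2*, *Col3a1* and *Dcn* among them, were below the limit for testing. *Col1a1* and *Pdgfrb* were tested and not called (-0.56 and -0.22, edgeR adjusted p = 0.299 and 0.655). T and NK cell genes had 1 member higher (*Lck*) and 1 lower (*Il7r*) of 9 tested, beside 15.4% called over all genes, with summed levels of 89.4 to 97.6 CPM at 10 µM and 63.7 to 69.9 CPM at 50 µM (63.1 to 93.2 CPM with vehicle), and 5 of the 14 genes of the list, *Cd3e* and *Cd3g* among them, were below the limit for testing. *Cd3d* and *Trac* of T cells were tested, with log2 fold changes of 0.09 and -0.06 (edgeR adjusted p = 0.929 and 0.962). Stem and progenitor genes had 2 higher (among them *Cd34*) and 2 lower (*Ly6a* and *Hlf*) of 11, with summed levels of 213.3 to 238.4 CPM and 169.5 to 195.8 CPM (217.2 to 241.8 CPM with vehicle). Without replicate 1 or 4 at 50 µM, 1 of these was higher. The part of these cells in the results above was not tested.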

How the data were processed

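Stranded mRNA libraries of 12 cultures were analysed. Per the methods and the processing notes, Atropos trimming by the authors was followed by HISAT2 2.2.1 alignment to GRCm38.p6 (mm10) and featureCounts 2.0.1 counting per Ensembl gene. The deposited values are raw counts, whole numbers per gene and library, and 0 columns belonged to samples outside the series.

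Groups were taken from the labels. The filter kept genes that exceeded 0.5 CPM in 2 or more libraries. The main test was edgeR 4.0.16's quasi-likelihood test with TMM factors (R 4.3.3) on the 8 libraries, with Benjamini-Hochberg adjustment over 14894 genes. CPM were scaled with TMM over 12 libraries. DESeq2 1.42.0, limma 3.58.1 (voom), other factors, filters, offsets, a replicate block and leaving out each library were the alternatives. The script for the test was tested on simulated data. Positions and exon lengths came from GENCODE on GRCm38, promoters from RefSeq.

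Named genes were the 12 largest rises and falls among called genes whose doses did not overlap and whose mean reached 1 CPM, leaving out symbols that start with Gm, end with Rik or hold -ps. Added to these were up to 6 called members with the largest changes and up to 3 highly expressed members not called in each list, and 15 gate and model genes. A few genes of this rule are not reported here. Genes outside this rule were chosen after their values were seen: *Atf4*, *Hif1a*, *Cdkn1a*, *Lpl*, *Axl*, *Cxcl16*, *Irf1*, *Nlrp3*, *Il1rn*, *Irf8*, *Cebpd*, *Mdm2*, *Shmt1*, *Mthfd1l*, *Slc40a1* and *Ftl1*, and those named to account for every called member of a list or for the tested markers of other cells. The dose comparison and all lists were chosen with earlier results of these data known. Intervals and limits from counts cover counting error only.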

Additional observations from a re-analysis of the deposited data

Results flagged for a closer look

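In 25 of 720 groups of 4 libraries, over the named genes and the 3 groups, 1 library stood apart, its gap to the nearest of the others over the range of its group passing Dixon's 95% critical value. Chance gives about 1 in 20 such groups, more than were found, so the values are given without reading a pattern from them.

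At 10 µM, the single libraries that stood apart were as follows. *Cth* was at 0.920 CPM in replicate 2 and at 1.47 to 1.56 CPM in the others (gap 0.856 of the range). *Mpzl2* was at 0 CPM in replicate 4 and at 0.326 to 0.376 CPM in the others (gap 0.866 of the range). *Smtnl2* was at 3.50 CPM in replicate 3 and at 1.51 to 1.85 CPM in the others (gap 0.831 of the range). *Cyp1a1* was at 0.0376 CPM in replicate 3 and at 0 CPM in the others (gap 1 of the range). *Aars* was at 169 CPM in replicate 3 and at 182 to 183 CPM in the others (gap 0.920 of the range). *Pmaip1* was at 57.8 CPM in replicate 4 and at 50.2 to 50.7 CPM in the others (gap 0.936 of the range). *Batf3* was at 8.56 CPM in replicate 4 and at 10.5 to 10.8 CPM in the others (gap 0.835 of the range). *Tnf* was at 48.5 CPM in replicate 1 and at 50.6 to 51.0 CPM in the others (gap 0.866 of the range). The 10 µM value of *Cyp1a1* is 1 count, and that of *Mpzl2* is 0 counts, which allows up to 3.

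At 50 µM, the single libraries that stood apart were as follows. *Ccl8* was at 1.47 CPM in replicate 1 and at 0.437 to 0.546 CPM in the others (gap 0.894 of the range). *Slc6a9* was at 3.88 CPM in replicate 2 and at 4.83 to 4.90 CPM in the others (gap 0.927 of the range). *Sars* was at 219 CPM in replicate 3 and at 194 to 199 CPM in the others (gap 0.830 of the range). *Pmaip1* was at 80.6 CPM in replicate 1 and at 87.2 to 88.2 CPM in the others (gap 0.871 of the range). *Tyms* was at 40.6 CPM in replicate 4 and at 51.3 to 53.6 CPM in the others (gap 0.830 of the range). *Prss57* was at 18.3 CPM in replicate 4 and at 13.2 to 13.7 CPM in the others (gap 0.889 of the range). *Mmp9* was at 748 CPM in replicate 2 and at 708 to 713 CPM in the others (gap 0.860 of the range). *H2-Ab1* was at 394 CPM in replicate 4 and at 502 to 506 CPM in the others (gap 0.968 of the range). H2-T22 was at 58.5 CPM in replicate 3 and at 46.9 to 48.2 CPM in the others (gap 0.883 of the range). *Ifit3* was at 0.420 CPM in replicate 4 and at 0.782 to 0.825 CPM in the others (gap 0.892 of the range).

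With vehicle, the single libraries that stood apart were as follows. *Mpzl2* was at 0.743 CPM in replicate 2 and at 0.159 to 0.227 CPM in the others (gap 0.884 of the range). *Gpr35* was at 47.1 CPM in replicate 3 and at 39.9 to 40.5 CPM in the others (gap 0.921 of the range). *Wars* was at 74.5 CPM in replicate 2 and at 70.0 to 70.3 CPM in the others (gap 0.935 of the range). *Asns* was at 80.6 CPM in replicate 4 and at 60.8 to 63.3 CPM in the others (gap 0.876 of the range). *Ccnb2* was at 99.3 CPM in replicate 4 and at 84.7 to 85.5 CPM in the others (gap 0.947 of the range). *Klf4* was at 31.3 CPM in replicate 4 and at 36.4 to 36.7 CPM in the others (gap 0.958 of the range). *Lif* was at 2.94 CPM in replicate 4 and at 4.09 to 4.21 CPM in the others (gap 0.900 of the range).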

How the results depend on the processing

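Of the 240 genes followed, none changed direction under any alternative (239 had a value with a minimum mean of 10 counts). Many of these genes were picked because they were called, and each alternative used the same libraries. A change of direction was therefore unlikely from the start. The number of called genes was 2784 with DESeq2, 2347 with limma-voom, 2297 and 2291 with other scaling factors, 2651 with no filter, 2321 with a minimum mean of 10 counts, 2331 with an offset for GC content, 2843 with one for exon length and 1972 with all 12 libraries in the fit. A minimum absolute log2 fold change of 0.5 left 975 called genes, 542 higher and 433 lower. Leaving out 1 library gave 1604 (without replicate 2 at 10 µM) to 2269 called genes, and 1295 genes were called in every such fit. The replicate numbers did not pair the libraries: deviations of same-numbered libraries correlated at 0.10, 0.02, -0.03 and 0.07, and 2 of the 4 numbers correlated best with their own. With the replicate number as a block, 2200 genes were called (3017 with the length offset added), 3 of the 240 genes lost their call and 5 ribosomal protein genes were higher. Over the fits without 1 library, members lower ranged from 3 to 6 for amino acid transporters, 3 to 7 for endoplasmic reticulum chaperones and 4 to 8 for mitosis. Members higher ranged from 6 to 11 for cytosolic tRNA synthetases, 3 to 6 for NRF2 genes and 1 to 26 for ribosomal proteins, of which DESeq2 called 14. The cause was not tested. Calls lost with all 12 libraries in the fit numbered 16 of the 240 genes, and those lost without 1 library 6 to 23. Genes near the limit of 0.5 CPM rest on few counts.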
